A study of Mus musculus with 14 samples.

Results

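The cytosolic ribosomal protein genes were followed in hippocampal RNA of mice labelled LPAR2-/- and of wild-type (WT) mice. They were taken by name from the counted genes, as Rps or Rpl followed by digits and at most 1 final letter a, x or l, together with Rpsa, Rplp0, Rplp1 and Rplp2. Of 81 genes with such a name, 7 on chromosomes 5 and 8 were left out, so 74 members of 24421 counted genes remained. The rule used no measured value. The RNA came from 7 mice of each genotype, all male, naive and of the strain given as 129.C57Bl6. By the labels they were 10 to 12 weeks old, but the description of the series calls them middle-aged or older, so the age is not settled. The tissue is hippocampus in the labels and methods, but the results of the study name the dentate gyrus, so the dissected region is not settled either. The knockout colony was bred as homozygotes beside a separate control colony of mixed C57BL/6 and 129/SvJ background. Genotype and colony therefore cannot be told apart. The knockout allele lacks the later part of exon 2 of Lpar2, which encodes a receptor for lysophosphatidic acid. Counts for Lpar2 over all of its exons went against the label, with 8.20 to 12.3 CPM (read counts scaled to a library of 1000000 reads) in the libraries labelled LPAR2-/- and 1.51 to 3.23 CPM in the WT libraries. They include exons outside the deletion, so they do not test the deletion itself. All directions below refer to the libraries by their labels.

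Each ribosome joins a small subunit, which decodes the mRNA, to a large subunit, which forms peptide bonds, and most ribosomal proteins are needed in about equal number. Mammalian ribosomal protein mRNAs typically begin with a terminal oligopyrimidine tract, an unbroken run of C and T at the start of transcription, through which mTORC1 controls their translation. Most of these genes have given rise to many processed pseudogenes, intronless copies elsewhere in the genome. In neurons, ribosomal protein mRNAs are found in cell bodies and also in dendrites and axons.

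Start windows were searched for such a tract in members past the threshold and in those with the highest or lowest level. Each window holds 15 bases before and 15 bases from the annotated start on, 5′ to 3′ on the gene's strand, from RefSeq on GRCm38.p6. Capitals mark the longest unbroken run of C and T on that strand. The first 5 genes passed the test between genotypes, Rps15 is among the 5 highest by level and the last 5 are the lowest of the members that passed the filter on low counts.
Rpl7a, chr2:26910792-26910821, plus strand: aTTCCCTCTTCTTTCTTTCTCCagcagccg
Rpl13a, chr7:45128731-45128760, minus strand: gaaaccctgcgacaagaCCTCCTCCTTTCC
Rpl4, chr9:64173372-64173401, plus strand: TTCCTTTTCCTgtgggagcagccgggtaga
Rps9, chr7:3704026-3704055, plus strand: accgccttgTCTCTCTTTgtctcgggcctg
Rpl41, chr10:128549154-128549183, minus strand: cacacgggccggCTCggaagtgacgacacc
Rps15, chr10:80292416-80292445, plus strand: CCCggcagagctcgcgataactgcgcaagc
Rpl28, chr7:4792950-4792979, plus strand: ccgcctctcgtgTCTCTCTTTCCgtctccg
Rpl19, chr11:98026695-98026724, plus strand: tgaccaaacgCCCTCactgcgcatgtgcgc
Rpl24, chr16:55966260-55966289, plus strand: agaaagCTgttgctaggaaacagactgggc
Rps27, chr3:90213634-90213663, minus strand: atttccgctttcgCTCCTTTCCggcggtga
Rpl27, chr11:101442230-101442259, plus strand: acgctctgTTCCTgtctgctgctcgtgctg
The run was 21 bases long in Rpl7a, at least 13 in Rpl13a and 3 in Rpl41, so genes past the threshold had long and short runs alike. In Rpl13a, Rpl4 and Rps15 the run met an edge of the window, so it may be longer. Here and in the shares below, the longest run anywhere in the window was taken. In Rpl4 and Rps15, for example, it lay wholly before the annotated start. Windows were found for 55 of the 74 members, and Rplp1, Rps20 and Rpl8 had none. Among the 67 windows of members, 38.8% held a run of at least 8 bases, against 12% of all 32851 windows. A window without a long run says only that these letters are not in it, since annotated starts can lie some bases away from the start used.

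The 14 libraries held 15434620 to 23258949 counted reads each. Defining markers of neurons, astrocytes, oligodendrocytes and microglia were present in the mice of each genotype. Of 4 blood genes 3 were at 0, and the sums were 1.015 to 3.145 CPM in mice labelled LPAR2-/- and 1.054 to 2.1 CPM in WT. Reads matching several places were not counted, so counts of 0 do not show that blood was absent. Summed oligodendrocyte markers ranged from 880.1 to 3635 CPM in mice labelled LPAR2-/- and from 1095 to 1889 CPM in WT, with the highest sum in the labelled LPAR2-/- mouse 3. Summed choroid plexus markers reached 285.8 CPM in the labelled LPAR2-/- mouse 2, and lay between 26 and 50.7 CPM in the other mice of that label and between 28.89 and 33.71 CPM in WT. All 5 microglial markers were higher in the labelled LPAR2-/- mice, with sums of 207.1 to 258.1 CPM against 200 to 240.7 CPM, but none passed the test. All 5 oligodendrocyte markers were also higher by log2 fold change, as were 3 of 5 in endothelium and 1 of 5 in astrocytes. None of these passed either. Summed meningeal markers were 37.72 to 172.2 CPM against 31.87 to 122.5 CPM, with 4 of 5 higher and 1 past the threshold. Those of pericytes and smooth muscle were 105.1 to 247.3 CPM against 75.66 to 206.4 CPM, with 4 of 5 higher. Their part in the results below was not tested, and in bulk tissue a change in the number of cells of a type and a change in RNA per cell cannot be told apart.

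The counted level of the members in WT hippocampus spanned more than 2 orders of magnitude per length of exon, although most of the proteins are needed in like amounts. Per kb of counted exon, Rplp1 had the highest level at 307 ± 19.96 CPM per kb (SD, n = 7), followed by Rpl4 at 304 ± 10.5 CPM per kb, and these did not differ beyond their spread. Rplp1 encodes a protein of the stalk that recruits elongation factors, and Rpl4 a large subunit protein that lines the peptide exit tunnel. Rpl8 stood at 227 CPM per kb and Rps15 at 192 CPM per kb. The lowest of the 64 members that passed the filter on low counts were Rpl27 at 1.11, Rps27 at 1.12, Rpl24 at 1.14, Rpl19 at 1.15 and Rpl28 at 1.24 CPM per kb, with neighbours that lay within each other's SD. The median of all 74 members was 15.8 CPM per kb.

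Reads that matched several places were not counted, so each member's transcript was compared with all other annotated transcripts in words of 50 bases. The transcript chosen for a member can differ in length from its counted exons, as in Rps20 with 3706 against 502 bases. Of the 74 members, 71 shared at least 1 such word with a pseudogene, and the median member shared words with 8 pseudogenes. Rpl7a shared words with 121 pseudogenes, Rpl29 with 81 and Rps2 with 71. In 27 members at least 60% of the words occurred in no other gene, and their median WT level was 37.1 CPM per kb. In 25 members under 30% of the words were unique, and their median level was 3.32 CPM per kb. Over the 70 members without a large overlap with another gene, unique share and level had a Spearman correlation of 0.336, and of 0.431 with words of 100 bases. This is a description across genes that share libraries and length bias, with no test. Levels of different members are thus levels of uniquely assigned reads, not of mRNA.

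**Figure D1:**
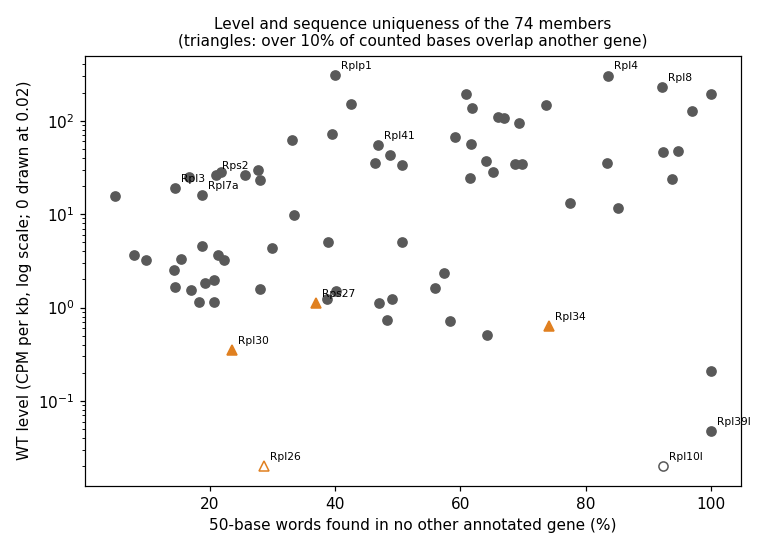
WT level of each of the 74 members (CPM per kb of counted exon, mean of 7 mice, log scale, with 0 drawn at 0.02) against the percentage of its 50-base words found in no other annotated gene. Circles are members without and triangles members with over 10% of counted bases on another gene of the same strand. Members under 30% unique reach at most 29.7 CPM per kb, and the 4 triangles are among the lowest.

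A filter on low counts removed 10 members. Rpl26 and Rpl10l had 0 counts in all 14 mice. A count of 0 allows up to 3 counts in a library, and this floor covers counting error only. Of the 543 counted bases of Rpl26, 520 lay on exons of another annotated gene, Gm15772, on the same strand, and reads on exons of several genes were not counted. The same held for 476 of 626 bases of Rpl30 with Gm12191 and for 413 of 689 bases of Rpl34 with Rpl34-ps1. Rpl10l, a testis-expressed retrogene of Rpl10, had 92.4% unique words, so its 0 counts were not accompanied by low uniqueness. Rpl3l, known from heart and skeletal muscle, had 2 to 10 counts per mouse and Rpl39l, known from testis, 0 to 2 counts, both with 100% unique words. Rpl38, Rps16, Rps23 and Rps29 had at most 14 counts in any mouse. These 10 genes were not tested in the main comparison, and without the filter 72 members were tested, all but Rpl26 and Rpl10l.

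Among the 64 members tested, 9 passed the threshold and all 9 were higher in mice labelled LPAR2-/-. They included Rplp1, Rpl7a, Rpl4, Rpl13a, Rps20, Rpl41 and Rps9, whose differences were small, between 9.7% and 21.2%. These 9 made up 14.1% of the members tested, where 3.32% of all 14897 genes tested were called higher with edgeR at an adjusted p under 0.05. No member was called lower, against 3.46% of all genes. With DESeq2 1 member, Rpl29, was called lower, where 726 of all 14897 genes were. With the same tool 10 members were called higher, or 15.6% against 4.48% of all genes. At an unadjusted p under 0.05, 17 members were higher and 3 lower (Rpl29, Rpl10 and Rps18), where 11.3% of all genes were higher and 11.1% lower. The log2 fold change was above 0 in 46 members, or 71.9%, against 51.1% of all genes. Its median was 0.09 over the members and 0.00 over all genes tested. The direction of all-gene calls depended on scaling, with 494 genes higher and 515 lower after normalization by TMM but 616 and 377 with the upper quartile, where 10 members were called higher and 0 lower.

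**Figure D2:**
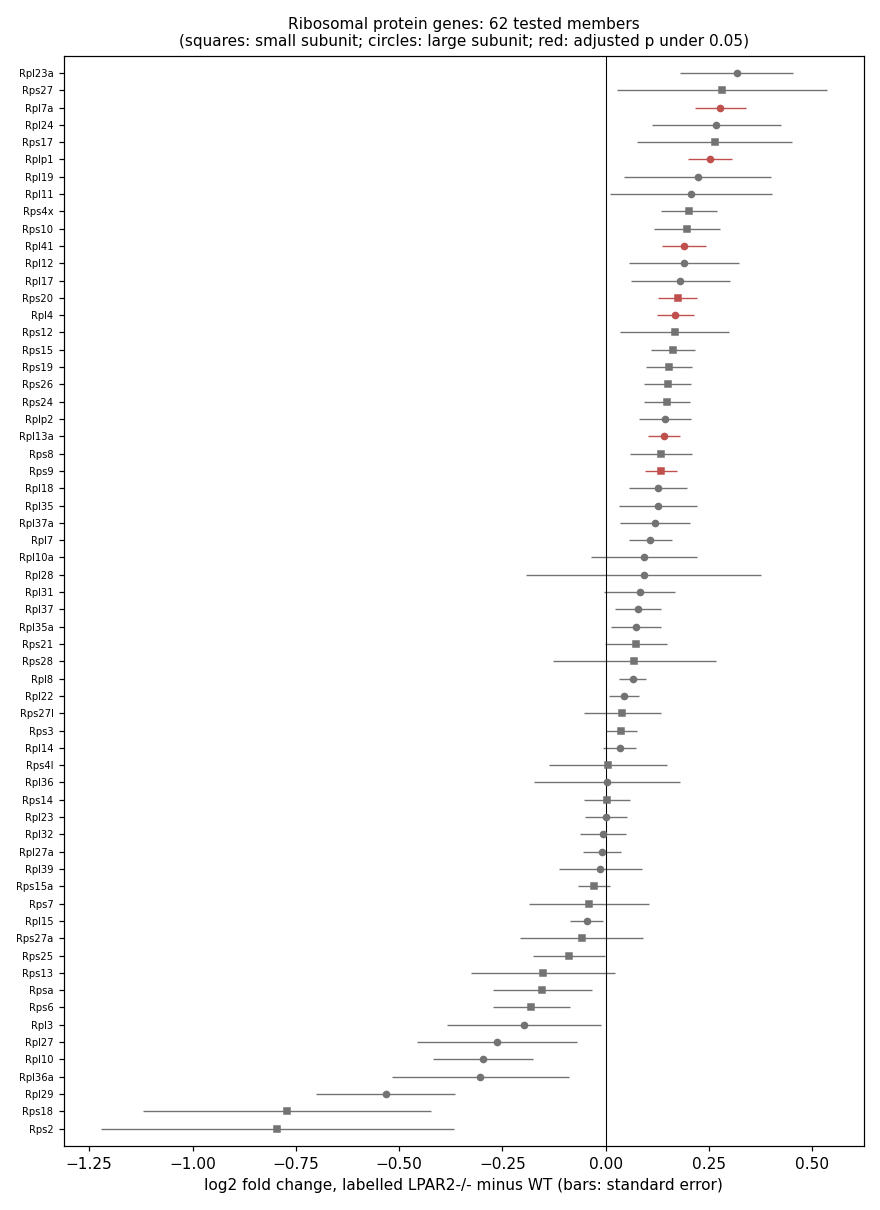
Log2 fold change of 62 of the 64 tested members, labelled LPAR2-/- minus WT, with its standard error, sorted by size. Squares are small subunit and circles large subunit proteins, and the 7 red symbols passed an adjusted p under 0.05. Most estimates lie between 0 and 0.32, and Rps2, Rps18 and Rpl29 lie farthest below 0.

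The 9 calls rested on small differences and were sensitive to the mice included. Leaving out the labelled LPAR2-/- mouse 3 gave 10 calls, or 15.6% of members against 3.81% of all genes. Leaving out WT mouse 1 gave 8 calls, or 12.5% against 4.41%. Without any other mouse there were only 2 to 4 calls, including 3 without the labelled LPAR2-/- mouse 2. In those other fits 3.08% to 6.25% of the members tested were called higher, against 1.84% to 3.26% of all genes. The excess over all genes was then much smaller than 14.1% against 3.32%, and it was gone without WT mouse 7, with 3.08% of members against 3.26% of all genes. Rplp1 and Rpl7a passed in all 14 of these fits. A correction for the trend of the counts with gene length left 3 calls, Rpl7a, Rplp1 and Rpl4, which were 4.69% of members against 3.32% of all genes. Among the calls lost, the log2 fold change was then 0.11 in Rpl13a, 0.15 in Rps20 and 0.16 in Rpl41.

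Members are short genes, so they were set beside all genes of like length and like level. Of the members with up to 700 counted bases, 26 of 32 had a log2 fold change above 0 and 4 were called, with a median of 0.13. The 417 tested genes of that length had a median of 0.02 with 56.8% above 0 and 1.68% called higher. Above 700 and up to 1500 bases the medians were 0.08 in 27 members and 0.03 in 2016 genes. Of these members 18 were above 0 and 5 were called, where 59.1% of the genes were above 0 and 3.87% called higher. The 5 members above 1500 bases (Rpl22, Rps3, Rps15a, Rpl15 and Rpsa) had a median of -0.03, and none of them was called. The 12464 genes of that length had a median of 0.00 with 49.6% above 0 and 3.28% called higher. Among the 30 members with a mean of at least 20 CPM, 24 were above 0 with a median of 0.09 and 8 were called. The 8155 genes of that level had a median of -0.01 with 44% above 0 and 2.71% called higher. From 5 to 20 CPM, 9 of 12 members were above 0 and 1 was called, with a median of 0.10. The 3504 genes of that level had a median of 0.03 with 57.5% above 0 and 4.45% called higher. Below 5 CPM, 13 of 22 members were above 0 and none was called, with a median of 0.08 beside 0.08 for all 3238 genes of that level, of which 62% were above 0 and 3.61% called higher.

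Of the large subunit, 26 of 35 tested members were above 0, 5 were called and the median was 0.09. Rplp1 (chr9:61913283-61914510, mm10) had a lowest, median and highest value of 155, 172 and 194 CPM in mice labelled LPAR2-/- and of 133, 144 and 157 CPM in WT. Of the 7 labelled LPAR2-/- mice, 6 lay above the highest WT mouse, and the log2 fold change was 0.25 ± 0.05 (SE, adjusted p = 0.0108). Rpl7a, a large subunit protein, had 14.8, 16.9 and 17.8 CPM against 12.4, 13.4 and 15.5 CPM. Its log2 fold change of 0.28 ± 0.06 (adjusted p = 0.0153) was the largest of the 9, and again 6 mice exceeded every WT mouse. Only 18.8% of the words of Rpl7a were unique, so this is the level of the reads that could be placed.

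Rpl4 was the most abundant member by CPM, with 439, 483 and 532 CPM against 414, 435 and 456 CPM. It was higher by 0.17 ± 0.04 on the log2 scale (adjusted p = 0.0333), and 83.5% of its words were unique. Rpl13a, which is also released from the ribosome to silence inflammatory mRNAs in myeloid cells, had 163, 170 and 183 CPM against 144, 157 and 164 CPM, a log2 fold change of 0.14 ± 0.04 (adjusted p = 0.0374). Rpl41, the shortest ribosomal protein, had 24.96, 27.5 and 30.5 CPM against 22.6, 24.8 and 25.9 CPM, a log2 fold change of 0.19 ± 0.05 (adjusted p = 0.0395). The 2 ranges overlapped in each of these genes, while all 7 mice labelled LPAR2-/- were above the WT median.

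Of the small subunit, 20 of 29 tested members were above 0, 4 were called and the median was 0.07. Rps20, a protein of the subunit head (chr4:3834473-3835600), had 24.1, 25.1 and 28.3 CPM in mice labelled LPAR2-/- and 21.8, 22.7 and 24.9 CPM in WT, a log2 fold change of 0.17 ± 0.05 (adjusted p = 0.0381). Rps9, at the mRNA entry, had 78.8, 81.7 and 86.2 CPM against 69.1, 77.7 and 79.4 CPM, a difference of 0.13 ± 0.04 (adjusted p = 0.0478). All 7 mice labelled LPAR2-/- were above the WT median in Rps20 and in Rps9, and the ranges of the genotypes overlapped in both. Across all 64 members none had ranges without overlap, against 1.77% of all genes tested.

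**Figure D3:**
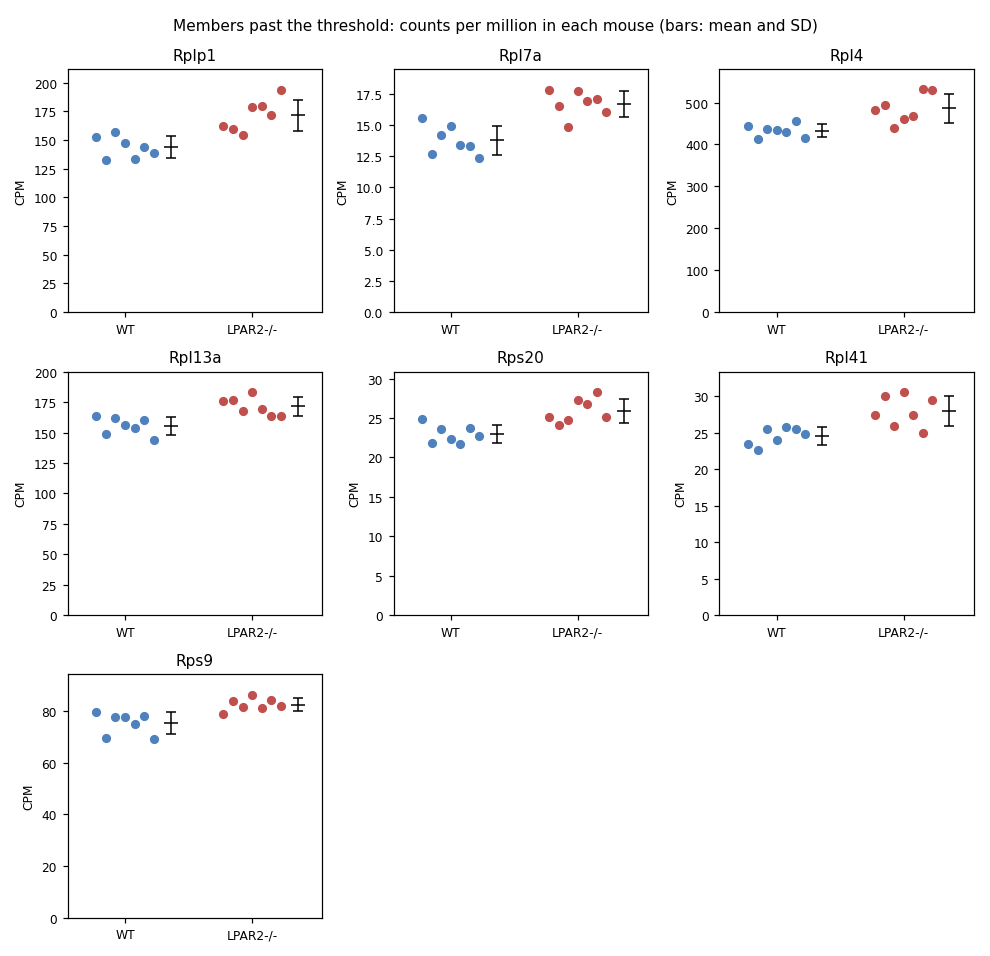
CPM in each mouse for 7 of the 9 members past the threshold, WT in blue and labelled LPAR2-/- in red, with mean and SD beside each group and axes from 0. The labelled LPAR2-/- points lie mostly above the WT points but overlap them in every panel, and the differences are small against the level.

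Other members did not reach the threshold in this test. Rps15, in the subunit head near the decoding site, had 102, 112 and 132 CPM against 88.6, 103 and 105 CPM, a log2 fold change of 0.16 ± 0.05 (adjusted p = 0.0785). It was called higher with DESeq2, with upper quartile scaling and without the labelled LPAR2-/- mouse 3. Rpl23a had the largest positive estimate of all members at 0.32 ± 0.14, but at 1.73 ± 0.27 against 1.40 ± 0.19 CPM (SD, n = 7) its adjusted p was 0.179. Rpl36a had -0.30 ± 0.21 on the same scale (adjusted p = 0.429). Rpl10, which joins the large subunit late in its assembly, had 1.89 to 2.81 CPM against 2.22 to 3.32 CPM, a log2 fold change of -0.30 ± 0.12 (adjusted p = 0.155). Rps6, whose phosphorylation is widely read as a sign of mTORC1 and neuronal activity, had 4.08 ± 0.38 against 4.63 ± 0.48 CPM and a log2 fold change of -0.18 ± 0.09 (adjusted p = 0.266). Its phosphorylation was not measured here.

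The 3 largest estimates belonged to members whose level differed widely among the mice labelled LPAR2-/-. Rps2, at the mRNA entry (chr17:24720063-24721927), had 2.31, 2.51, 15.9, 28.7, 13.2, 16.4 and 27.4 CPM in the labelled LPAR2-/- mice 1 to 7. In WT it had 23.4 to 30.3 CPM with a median of 25.5 CPM. Labelled mice 4 and 7 were thus within the WT range, 3, 5 and 6 were below it and 1 and 2 were lower still. The log2 fold change of -0.80 ± 0.43 did not pass (adjusted p = 0.293).

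Rps18, in the subunit head (chr17:33951999-33955641), had 2.05, 2.05, 6.97, 14.4, 7.05, 7.94 and 13.2 CPM in the same mice in the same order, against 11.6 to 13.95 CPM in WT. The lowest mice were again 1 and 2 and the highest 4 and 7, and the log2 fold change was -0.77 ± 0.35 (adjusted p = 0.210). Rpl3, next to the peptidyl transferase centre (chr15:80077781-80083406), had 31.8, 32.5, 15.1, 29.6, 15.6, 17.4 and 15.2 CPM, against 23.2 to 27.5 CPM in WT. Here mice 1, 2 and 4 lay above every WT mouse and mice 3, 5, 6 and 7 below every WT mouse, so the log2 fold change of -0.20 ± 0.19 (adjusted p = 0.575) describes no single mouse. Rpl29 (chr9:106429539-106431567), a small protein at the surface of the large subunit, had 8.05, 6.35, 3.59, 3.96, 3.26, 4.54 and 4.22 CPM, against 6.01 to 7.75 CPM. Mouse 1 was above the WT range, mouse 2 within it and the other 5 below it, with a log2 fold change of -0.53 ± 0.17 (adjusted p = 0.0697).

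**Figure D4:**
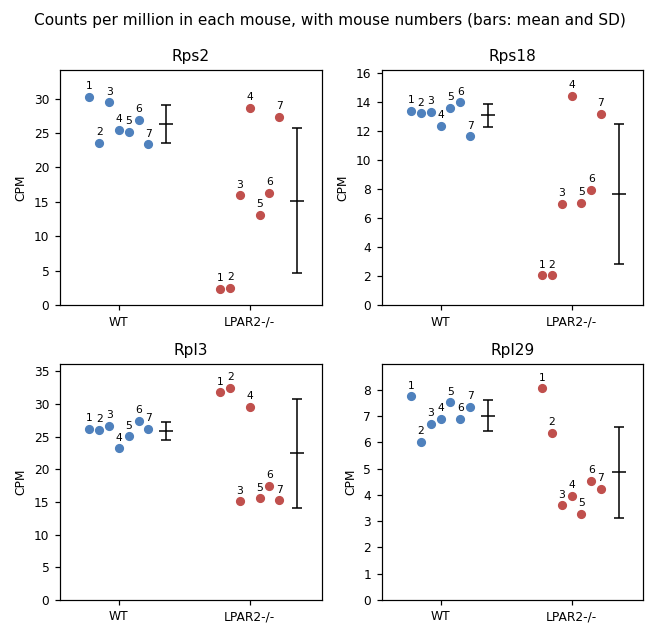
CPM of Rps2, Rps18, Rpl3 and Rpl29 in each mouse, with the mouse number above each point, WT in blue and labelled LPAR2-/- in red, and mean and SD beside each group. WT mice lie close together, whereas the labelled LPAR2-/- mice fall on separate levels, for Rps2 from 2.31 to 28.7 CPM.

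The coefficient of variation among mice labelled LPAR2-/- was above 25% in these 4 of the 42 members with a mean of at least 5 CPM, which were singled out after their values were seen. Among all 11659 genes of that level 4.31% were as variable. Among WT mice 1 member exceeded it, Rps4l at 25.5%, against 2.77% of all genes. All 4 shared most of their words with other genes, with 20.97% unique words in Rps2, 16.7% in Rps18, 14.4% in Rpl3 and 33.4% in Rpl29. Other members with as few unique words varied less among these mice, such as Rpl35 with 4.91% unique words and a coefficient of variation of 10.3%, and Rpl7a with 18.8% and 6.23%. The transcript compared for Rpl35 had 946 bases against 452 counted bases, so the unique share of its counted bases is uncertain. The part of colony background or of placement of reads in these levels was not tested, and mice were not regrouped by them.

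Summed over the 74 members, the share of all counts was 0.289% ± 0.0118 in mice labelled LPAR2-/- and 0.269% ± 0.00789 in WT (SD, n = 7). The shares ran from 0.269% to 0.301% and from 0.258% to 0.276%. Without Rps2, Rps18, Rpl3 and Rpl29 they were 0.284% ± 0.0109 and 0.262% ± 0.00755. The lowest mouse labelled LPAR2-/- was mouse 3, which also had the highest sum of oligodendrocyte markers. As the members were chosen with earlier results known, this share has no test. The median log2 deviation of the 30 members with at least 20 CPM from their WT mean was between 0.01 and 0.14 in mice labelled LPAR2-/- and between -0.07 and 0.04 in WT, so the ranges overlapped.

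**Figure D5:**
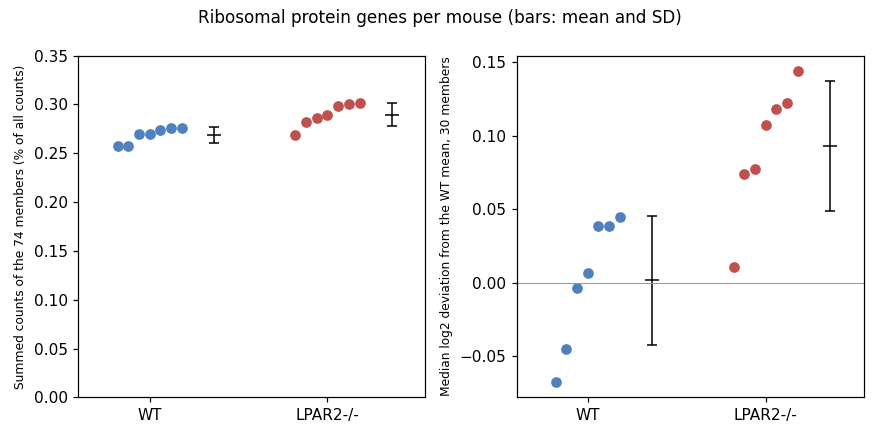
Left, summed counts of the 74 members as a percentage of all counts in each mouse, on an axis from 0. Right, median log2 deviation from the WT mean over the 30 members with at least 20 CPM, with points for mice, sorted by value, and bars for mean and SD. The labelled LPAR2-/- mice reach 0.301% and the WT mice 0.276%, with overlap in both panels.

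Members tended to vary together from mouse to mouse within a genotype. After removal of genotype means, the median correlation of 435 pairs among the 30 members with at least 20 CPM was 0.236, where the median over all pairs of 8155 genes of that level was 0.0167. Within WT mice the medians were 0.35 and 0.01, and within mice labelled LPAR2-/- 0.239 and 0.03. These pairs share libraries and the values are descriptive. The median coefficient of variation of the same 30 members was 4.93% in WT and 7.42% in mice labelled LPAR2-/-.

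In the pairs of a canonical gene and its paralog, no tested gene passed the threshold between genotypes in the main comparison. Rpl22 had 47.4 CPM per kb in WT and a log2 fold change of 0.04 ± 0.04, and its paralog Rpl22l1 had 0.04 ± 0.05. Rpl7 had 0.11 ± 0.05 (adjusted p = 0.227) and Rpl7l1 -0.01 ± 0.05. Rps4x, the X-linked form, had 0.20 ± 0.07 (adjusted p = 0.0879) and was called higher without the labelled LPAR2-/- mouse 3. Rps4l, a related gene on chromosome 6, had 0.01 ± 0.14. Rps27 had 0.28 ± 0.25 at 1.12 CPM per kb, and Rps27l, a p53-responsive paralog, 0.04 ± 0.09 at 13.3 CPM per kb. Of the counted bases of Rps27, 345 of 575 lay on Rps27rt, which lowers its count. Rpl36al had 0.01 ± 0.09, beside the -0.30 of Rpl36a. Rpl39 had -0.01 ± 0.10, and Rpl3l, Rpl10l and Rpl39l were removed by the filter on low counts.

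Related lists were counted in the same fit, where 51.1% of all genes were above 0, 3.32% were called higher and 3.46% lower. The exclusion of chromosomes 5 and 8 was not applied to these lists or to those below. Of 7 ribosomal proteins outside the naming rule, 5 were above 0 and none was called, with a median of 0.04. Of 17 other mRNAs with a terminal oligopyrimidine tract, 13 were above 0, with a median of 0.06 and none called, and of 8 elongation factors 6, with a median of 0.07 and none called. Of 34 tested initiation factors 22 were above 0, and 1 was called lower, Eif2s1, which carries the phosphorylation site of the integrated stress response (-0.12 ± 0.03, adjusted p = 0.0374). Of 40 genes of ribosome assembly 23 were above 0 and none was called, and of 19 genes of RNA polymerase I and its factors 7 were above 0 and none was called.

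Mitochondrial ribosomal proteins, which build the separate ribosome of mitochondria, were called about as often as all genes, with 3 of 76 tested called higher and 2 lower. Of these 76, 31 were above 0 with a median of -0.02, and Mrpl14 (0.47 ± 0.12, adjusted p = 0.0291), Mrps15 (0.21 ± 0.05, adjusted p = 0.0209) and Mrpl2 (0.18 ± 0.05, adjusted p = 0.0288) rose and Mrps6 (-0.27 ± 0.06, adjusted p = 0.0206) and Mrps27 (-0.19 ± 0.04, adjusted p = 0.0128) fell. Of 26 genes of the mTORC1 pathway 7 were above 0, where 51.1% of all genes were, and 2 were called lower, where 3.46% of all genes were. Of these 2, Tsc2, an inhibitor of mTORC1, fell by 0.17 on the log2 scale (SE 0.04, adjusted p = 0.0360). Castor2, listed as Gatsl2, a paralog of an arginine sensor of mTORC1, fell by 0.35 (SE 0.08, adjusted p = 0.0153). Among 9 tested genes of nucleolar stress and p53, 5 were above 0 with a median of 0.02, none was called higher and 2 were called lower. Of these 2, Cdkn1a, the cell cycle inhibitor p21, fell by 1.02 (SE 0.14, adjusted p = 0.000505) and Zmat3 fell by 0.21 (SE 0.06, adjusted p = 0.0375).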

How the data were processed

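Hippocampal RNA of 14 mice, 7 of each genotype, was depleted of ribosomal RNA and sequenced by the authors. Per the labels and methods, reads were trimmed with cutadapt 1.18 and aligned with STAR to mm10, and the deposited counts per gene were made with featureCounts 1.6.3 on exons of the reverse strand, where reads matching more than 1 place or gene do not count. A deposited table of normalized values, which the authors made with DESeq2 1.22.2, was treated as a score and used only in an alternative. Its decimal marks were lost and were restored as 3 decimals.

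The tools were edgeR 4.0.16, DESeq2 1.42.0 and limma 3.58.1 under R 4.3.3. After filterByExpr, 14897 genes were normalized by TMM and tested by robust quasi-likelihood in edgeR, 7 against 7 mice without covariates, with Benjamini-Hochberg adjustment over all 14897 genes at 0.05. CPM use TMM factors, and log2 values a prior count of 2. Library totals were 15434620 to 23258949 counts. Members, lists and tests were chosen with earlier results of these data known. Genes named are those past the threshold, the 5 highest and 5 lowest by level, the 5 largest fold changes, the members removed by the filter, paralog pairs, list genes past the threshold and Lpar2; others were named after their values were seen, and 2 members past the threshold are counted but not reported here by name. The test was checked on simulated counts. None of 42 pairs of libraries agreed within sampling noise (chi-square at least 3.36 per degree of freedom). Alternatives were other normalizations, filters, tools, a length trend, a replicate block and omission of each mouse.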

Additional observations from a re-analysis of the deposited data

Results flagged for a closer look

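Among 60 groups of 7 mice, taken from 29 members named above and from the summed share, 5 had a mouse far from the other 6, where about 1 in 20 would by chance. In mice labelled LPAR2-/-, mouse 3 had 192.8 CPM of Rpl8, below the other 6. Mouse 7 had 131.6 CPM of Rps15 and 73.09 CPM of Rpl7, above the other 6. In WT, mouse 1 had 17.49 CPM of Rpl39 and 7.656 CPM of Rps27l, above the other 6.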

How the results depend on the processing

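The median log2 fold change of the members stayed above 0 under every alternative, at 0.06 to 0.11 when 1 mouse was left out, and the 9 called genes, Rps2, Rps18, Rpl29 and Rpl3 kept their direction in the alternatives run. The number of members called higher was 9 to 10 with the other scalings, DESeq2 and the filter of at least 10 counts. These were 14.1% to 15.8% of members, against 3.37% to 4.48% of all genes. With limma on the normalized values it was 7 at both pseudocounts, or 9.86% of members against 2.72% of all genes. The number was 3 without a filter, 3 with the length trend, 2 with the replicate block, and 1 with the replicate block and the length trend together. As shares of members and of all genes tested these were 4.17% and 2.24%, 4.69% and 3.32%, 3.12% and 2.11%, and 1.56% and 2.26%, so the last left no excess over all genes. Omission of 1 mouse gave 2 to 10 called higher. Called lower was 1 with DESeq2, and 0 to 1 when 1 mouse was left out, 1 without the labelled LPAR2-/- mouse 1, in each case Rpl29. Over all genes, calls were 494 higher and 515 lower, 450 and 408 without a filter, 667 and 726 with DESeq2 and 314 and 272 with the replicate block. Correlations of same-numbered mice ran from -0.334 to 0.311, with 3 of 7 above 0.1. Of 14 mice, 5 correlated best with their own number in the other group. No chance level was computed for these values, so they do not settle whether the replicate numbers pair the mice. Depth limits the low members, such as Rpl28 at 0.61 CPM in WT with an SE of 0.28.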
